A study of Mus musculus with 13 samples.

Results

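The gastrocnemius transcriptome of obese mice given semaglutide together with a ketone ester was compared with that of vehicle-treated obese mice, to describe what remained different from untreated obese muscle when both agents had been given. The comparison rests on 8 of the 13 mice of the study, 3 semaglutide + ketone ester-treated mice (numbered 19, 21 and 22) and 5 vehicle-treated mice (numbered 1 to 5), chosen by their labels, and on the 12303 of 21868 genes whose normalized count averaged at least 10 over the 13 mice. The mice were male C57BL/6 (the study's methods give C57BL/6N for the sequenced animals), 7 weeks old when they entered the study, and all of them had eaten a diet with 60 kcal% fat for 15 to 17 weeks before they were changed to chow. For the following 3 weeks the vehicle group, labelled Vehicle+placebo, received phosphate-buffered saline, and the semaglutide + ketone ester group received semaglutide at 30 nM/kg/day by intraperitoneal injection and drank water that held ketone ester at 0.114 g/mL. The other 5 mice received the same dose of semaglutide without the ketone ester. All 3 groups had therefore left the high-fat diet for chow, no group received the ketone ester alone, and no lean mice are among these samples.

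Semaglutide is an agonist of the glucagon-like peptide-1 receptor that lowers food intake and body weight, with loss of lean as well as fat mass. The ketone ester is split in the body into fuel that raises blood ketone bodies, which muscle oxidizes in its mitochondria. The gastrocnemius of the mouse is a mixed, mostly fast limb muscle in which feeding state, the circadian clock, insulin and glucocorticoids all shape transcript levels through transcription factors such as FOXO1 and BMAL1.

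Between 15621189 and 17101549 reads were recovered per library in vehicle-treated mice and between 16149274 and 17175998 in semaglutide + ketone ester-treated mice. Of 13 skeletal muscle fibre markers, 13 were expressed, and their summed normalized count was 3832280 to 4501720 in semaglutide + ketone ester-treated mice against 3064210 to 3663460 in vehicle-treated mice, so that the groups did not overlap. In a principal component analysis of the 8 mice, the first component (24.1% of the variance) ran from -19.4 to -6.11 in vehicle-treated mice, while mouse 19 had a score of 9.43, mouse 21 of 27.4 and mouse 22 of 26.7. Mouse 19 was thus the nearest of its group to vehicle, and it was also the least changed of the 3 in several of the genes below. Among semaglutide-treated mice, mouse 13 stood apart from its group, with -9.12 on the first component of all 13 mice against 31.8 to 52.5 in the other 4. It takes no part in the group means compared here, but it enters the spread that the model shares over the 3 groups. Where semaglutide-treated mice varied widely, a gene whose compared groups lay apart could thus have a high adjusted p. Because the tissue was sequenced in bulk, fewer cells of a type and less RNA per cell cannot be told apart in any of these values.

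Of the genes tested, 29 passed the threshold between the combined treatment and vehicle, which is 0.236% (limma, Benjamini-Hochberg adjusted p under 0.05). Of these, 9 rose (0.0732% of genes tested) and 20 fell (0.163%). The same model called 25.1% of the genes in semaglutide-treated against vehicle-treated mice and 18.4% in semaglutide + ketone ester-treated against semaglutide-treated mice. At an unadjusted p under 0.05, 599 genes lay higher than in vehicle-treated mice (4.87%) and 690 lower (5.61%). The ranges of the 2 groups did not overlap for 670 genes that were higher (5.45%) and 723 that were lower (5.88%). Over all genes tested, 5991 had a positive log2 fold change and 6312 a negative one. Counts given for gene lists below are to be read beside these values. For each of the 29 genes the 3 semaglutide + ketone ester-treated mice lay outside the range of the 5 vehicle-treated mice, with log2 fold changes between 0.54 and 2.70 in size. The genes that fell included the insulin-restrained transcription factor Foxo1, the clock activator Arntl (BMAL1), the amino acid transporter Slc38a2, the sarcomere gene Igfn1 and the basement membrane collagens Col4a1 and Col4a2. The genes that rose included the clock gene Per3, the activin and myostatin receptor Acvr2b, the melanocortin receptor Mc5r and the lysosomal transporter Slc46a3.

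The number of genes called depended on single mice. In the semaglutide + ketone ester group it was 1 without mouse 21, 1 without mouse 22 and 12 without mouse 19. The gene called without mouse 22 was not among the 29, while 1 was without mouse 21 and 10 were without mouse 19. The number called was 3 without vehicle mouse 1, 3 without vehicle mouse 2 and 4 without vehicle mouse 3. Without semaglutide mouse 13 it was 77, with the 29 genes among them, and without semaglutide mouse 15 or 17 it was 13 or 17. With the columns scaled to equal totals the split was 6 genes higher and 31 lower. Cnksr3, Col4a2 and Slc46a3 passed the threshold in each of 14 other ways of processing or modelling the data. In the 13 fits without 1 mouse, Slc46a3 was called in 12, Cnksr3 in 11 and Col4a2 in 9. Other genes were less firm, with Acvr2b called in 2 of these fits and Igfn1, Eln and Aff1 each in 1. Throughout, log2 fold changes are differences of log2(normalized count + 1) given ± the standard error of the limma model, with 5 vehicle-treated and 3 semaglutide + ketone ester-treated mice, and adjusted p-values are from limma over all 12303 genes. Comparisons with semaglutide-treated mice share mice with this one, so that their values stand beside it as further measurements and not as independent evidence.

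**Figure D1:**
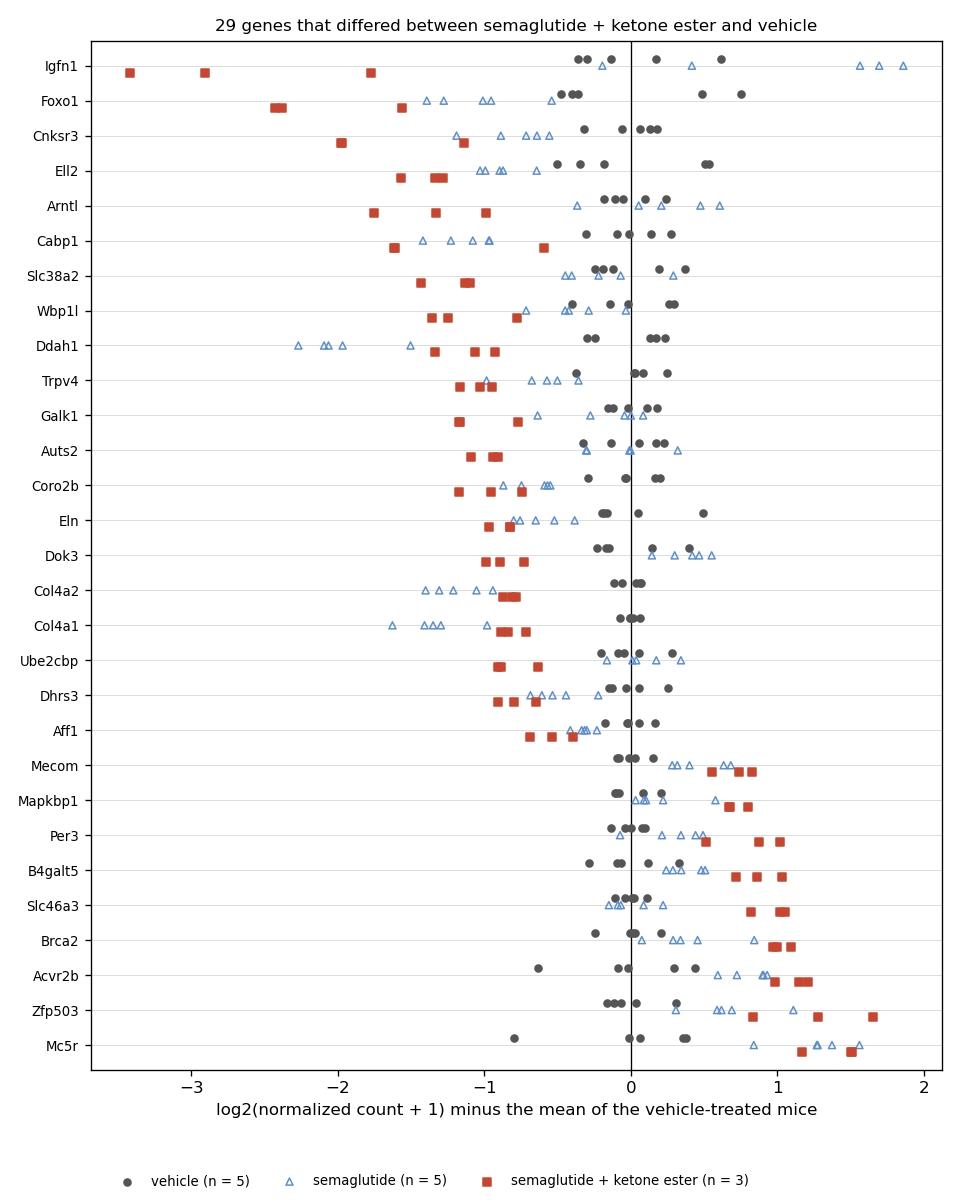
Log2(normalized count + 1) of the 29 genes that differed between semaglutide + ketone ester-treated (red squares, n = 3) and vehicle-treated mice (grey circles, n = 5), as the difference from the mean of the vehicle-treated mice, with semaglutide-treated mice (open blue triangles, n = 5) beside them; each point is a mouse. The red squares lie to 1 side of every grey circle in each row, while the blue triangles lie near the grey circles for genes such as Arntl and Slc46a3 and near or beyond the red squares for genes such as Mc5r and Col4a1.

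The circadian clock of muscle is a transcriptional loop in which BMAL1 and CLOCK activate the period and cryptochrome repressors and the genes Nr1d1 and Dbp, while REV-ERB proteins repress Arntl in return. A second arm runs through D-box elements, at which DBP, TEF and HLF activate and NFIL3 represses. Arntl (chr7:113207465-113314126, plus strand) had normalized counts of 254, 278, 308, 340 and 268 in vehicle-treated mice and of 145, 84.6 and 114 in semaglutide + ketone ester-treated mice. It fell by 1.36 ± 0.22 on the log2 scale (adjusted p = 0.0321). In semaglutide-treated mice it differed from vehicle by 0.20 (adjusted p = 0.474), and it was lower in semaglutide + ketone ester-treated than in semaglutide-treated mice by a log2 fold change of -1.55 (adjusted p = 0.00181). Per3 (chr4:151003652-151044665, minus strand), a period gene, had counts of 474, 402, 443, 430 and 466 in vehicle-treated mice and of 630, 813 and 899 in semaglutide + ketone ester-treated mice. It rose by 0.80 ± 0.14 (adjusted p = 0.0475), and mouse 19 had the smallest rise of the 3.

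The 250 bases before the start of Per3 are shown because they hold matches to the D-box, the kind of element that DBP and NFIL3 bind. The genes of both factors are on the clock list described next. The sequence is from RefSeq on GRCm38.p6 (chr4:151044666-151044915, minus strand, written 5′ to 3′), with the matches to TTATGTAA in capitals.
Per3: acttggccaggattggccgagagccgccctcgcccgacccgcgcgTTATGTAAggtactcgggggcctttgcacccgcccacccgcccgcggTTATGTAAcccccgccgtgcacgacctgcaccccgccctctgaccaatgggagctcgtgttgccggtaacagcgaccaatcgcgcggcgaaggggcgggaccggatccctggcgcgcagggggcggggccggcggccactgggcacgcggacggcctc
The 2 matches begin 205 and 158 bases before the start and do not overlap. Searched on both strands, TTATGTAA was in the same window of 54 of the 9653 tested genes that matched a RefSeq promoter (0.559%), and 4 of these held it at least 2 times. Per3 was the single holder among the 17 of 21 clock genes and among the 26 of 29 called genes that matched. Other spellings of the D-box and bases outside the window were not searched, so the other genes may hold the element. The E-box CACGTG, to which BMAL1 and CLOCK bind, was in the window of 5 of those 17 clock genes, 2 of those 26 called genes (Cnksr3 and Galk1) and 9.99% of the tested genes that matched. A match of letters is a description of the window and not a measured site, and its part in the rise of Per3 was not tested.

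Of 21 clock genes tested, Per3 was called higher, Arntl was called lower and the other 19 were not called by limma, while edgeR also called Nfil3 lower and DESeq2 Nfil3 and Clock. In 6 of the 21 the semaglutide + ketone ester-treated mice lay above the range of the vehicle-treated mice (5.45% over all genes tested). In 4 they lay below it (5.88% over all genes tested). The further members named here were chosen after their values were seen. Nfil3, the D-box repressor, had counts of 873, 951, 548, 745 and 587 in vehicle-treated mice and of 356, 242 and 275 in semaglutide + ketone ester-treated mice (log2 fold change -1.33 ± 0.25, adjusted p = 0.0536). The D-box activator Dbp had 1190, 1238, 1517, 1199 and 1196 in vehicle-treated mice and 2081, 2201 and 2241 in semaglutide + ketone ester-treated mice. Its ranges did not overlap, yet with a log2 fold change of 0.78 ± 0.40 it was not called (adjusted p = 0.529), and in semaglutide-treated mice it ran the other way at -1.63 against vehicle (adjusted p = 0.006). Clock itself was at 541 to 715 in vehicle-treated mice against 422 to 485 in semaglutide + ketone ester-treated mice (-0.48 ± 0.10, adjusted p = 0.0897). Nr1d1, which encodes REV-ERBα, was at 2524 to 4166 and at 1517 to 2106 (-0.77 ± 0.27, adjusted p = 0.33). Per2 was at 345 to 515 and at 550 to 600 (0.47 ± 0.16, adjusted p = 0.313), and Bhlhe40, a repressor of the loop, at 1241 to 1670 and at 2103 to 2389 (0.59 ± 0.23, adjusted p = 0.363). The counts of Cry1, Cry2 and Bhlhe41 overlapped between the groups. The hour at which tissue was taken is not given in the sources used here.

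**Figure D2:**
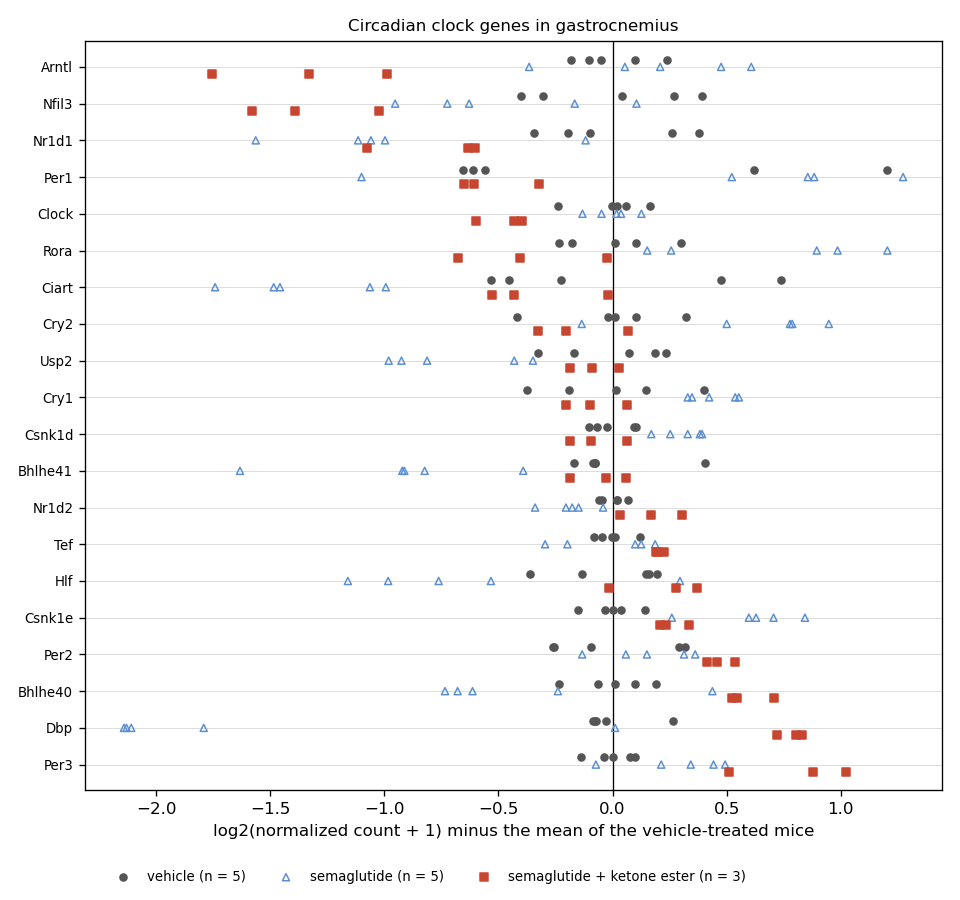
Log2(normalized count + 1) of 20 of the 21 circadian clock genes as the difference from the mean of the vehicle-treated mice, for vehicle-treated (grey circles, n = 5), semaglutide-treated (open blue triangles, n = 5) and semaglutide + ketone ester-treated mice (red squares, n = 3). In the 2 top rows, Arntl and Nfil3, the red squares lie below every grey circle, and in the 4 bottom rows, Per2, Bhlhe40, Dbp and Per3, above every grey circle, with log2 fold changes from -1.36 for Arntl to 0.80 for Per3.

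FOXO1 drives ubiquitin ligase and autophagy genes of muscle when insulin signalling is low. Foxo1 (chr3:52268336-52353221, plus strand) had normalized counts of 2745, 2285, 1270, 1237 and 1175 in vehicle-treated mice and of 553, 302 and 312 in semaglutide + ketone ester-treated mice. It fell by 2.12 ± 0.32 (adjusted p = 0.0285), with mouse 19 the highest of its group and vehicle mice 1 and 2 well above the other vehicle-treated mice. Semaglutide-treated mice also had less of it than vehicle-treated mice (log2 fold change -1.03, adjusted p = 0.0177), and semaglutide + ketone ester-treated mice less again than semaglutide-treated mice (-1.09, adjusted p = 0.033). Of 38 atrophy genes tested Foxo1 was the 1 called by limma and by edgeR, while DESeq2 also called Gadd45b, higher. The list's median log2 fold change was -0.19 against -0.01 over all genes tested, and 29 genes had a negative value. In 5 the semaglutide + ketone ester-treated mice lay below the vehicle range (5.88% over all genes tested) and in 3 above it (5.45%). At an unadjusted p under 0.05, 6 were lower and 2 higher. The ubiquitin ligase Fbxo32 (atrogin-1) was at 6730 to 7444 in vehicle-treated mice and at 5372, 3567 and 3808 in semaglutide + ketone ester-treated mice (-0.74 ± 0.80, adjusted p = 0.841), without overlap. Trim63 (MuRF1) was at 2433 to 4067 and at 3121, 2145 and 2151 (-0.42 ± 0.64, adjusted p = 0.902). Tnfrsf12a, the TWEAK receptor, was at 238 to 479 and at 250, 58.0 and 73.3 (-1.69 ± 0.48, adjusted p = 0.209), where mouse 19 lay inside the vehicle range. Semaglutide-treated mice ran from 1460 to 31652 for Fbxo32 and from 1206 to 13333 for Trim63. Their spread enters the standard errors of both genes, so these adjusted p-values do not show that the compared groups were alike.

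Foxo1 was also the 1 gene that limma called among 26 genes of insulin and IGF signalling, edgeR called it alone as well, and DESeq2 called Foxo1, Irs2 and Igf2. Irs2, which encodes an insulin receptor substrate and was named, like Igf2, after its values were seen, had counts of 969, 748, 969, 1021 and 716 in vehicle-treated mice and of 562, 594 and 439 in semaglutide + ketone ester-treated mice (-0.73 ± 0.16, adjusted p = 0.0921). Igf2 was at 277 to 309 and at 431 to 446 (0.57 ± 0.14, adjusted p = 0.141). Neither gene's groups overlapped. Slc38a2 (chr15:96687392-96699730, minus strand), which encodes the sodium-coupled neutral amino acid transporter SNAT2, had counts of 4870, 4316, 3183, 3466 and 3309 in vehicle-treated mice and of 1722, 1767 and 1401 in semaglutide + ketone ester-treated mice. It fell by 1.22 ± 0.19 (adjusted p = 0.0299). In semaglutide-treated mice it was at 2769 to 4619, a log2 fold change of -0.17 from vehicle (adjusted p = 0.471), and semaglutide + ketone ester-treated mice were lower than these by 1.05 on the log2 scale (log2 fold change -1.05, adjusted p = 0.00398). The level of this transporter thus separated the semaglutide + ketone ester-treated mice from both other groups.

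Collagen IV forms the network of the basement membrane around each fibre and capillary from chains of Col4a1 and Col4a2. These genes lie head to head on chromosome 8, Col4a1 at chr8:11198423-11312826 on the minus strand and Col4a2 at chr8:11312805-11449287 on the plus strand, and their annotated starts share 22 bases. Col4a1 had counts of 2263, 2376, 2162, 2300 and 2258 in vehicle-treated mice and of 1229, 1379 and 1269 in semaglutide + ketone ester-treated mice. It fell by 0.81 ± 0.12 (adjusted p = 0.0285). Col4a2 had 2051, 2056, 1885, 1815 and 2012 in vehicle-treated mice and 1140, 1069 and 1116 in semaglutide + ketone ester-treated mice. It fell by 0.82 ± 0.11 (adjusted p = 0.0185), and the spread within both groups was small for both genes. In semaglutide-treated mice they were lower still, with log2 fold changes of -1.33 and -1.18 against vehicle (adjusted p = 4.57e-05 for both). Semaglutide + ketone ester-treated mice lay above semaglutide-treated mice by 0.52 for Col4a1 (adjusted p = 0.0131) and by 0.36 for Col4a2 (adjusted p = 0.0353), so that the combined treatment stood between the other groups for both chains.

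Elastin gives elastic fibres their recoil. Eln had counts of 549, 348, 402, 343 and 340 in vehicle-treated mice and of 220, 198 and 220 in semaglutide + ketone ester-treated mice, and it fell by 0.87 ± 0.16 (adjusted p = 0.0479). Semaglutide-treated mice differed from vehicle by -0.62 (adjusted p = 0.00725), and the difference between semaglutide + ketone ester-treated and semaglutide-treated mice was -0.25 (adjusted p = 0.282). Of 33 collagen genes tested, Col4a1 and Col4a2 were called lower and none higher, and the median log2 fold change was -0.16. Unadjusted p-values under 0.05 were reached by 4 collagen genes that were lower and 1 that was higher. Beside the collagen IV chains, Col5a3 (named, like Col8a1 and Serpinh1, after its values were seen) was at 353 to 518 in vehicle-treated and at 222 to 306 in semaglutide + ketone ester-treated mice (-0.64 ± 0.19, adjusted p = 0.233), and Col8a1 was at 44.5 to 94.3 and at 103 to 109 (0.63 ± 0.20, adjusted p = 0.265). Of 28 genes of matrix processing 23 had a negative log2 fold change and 4 lay below the vehicle range (5.88% over all genes tested). None of the 28 was called by limma or edgeR, with 5 lower at an unadjusted p under 0.05, while DESeq2 called Timp4. The collagen cross-linking enzyme Plod2 was at 40.8 to 84.3 and at 20.6 to 48.1 (-0.89 ± 0.27, adjusted p = 0.245), and the inhibitor of metalloproteinases Timp4 was at 442 to 811 and at 223 to 357 (-1.22 ± 0.36, adjusted p = 0.241). The collagen chaperone Serpinh1 was at 696 to 1021 and at 565 to 640 (-0.48 ± 0.22, adjusted p = 0.469).

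**Figure D3:**
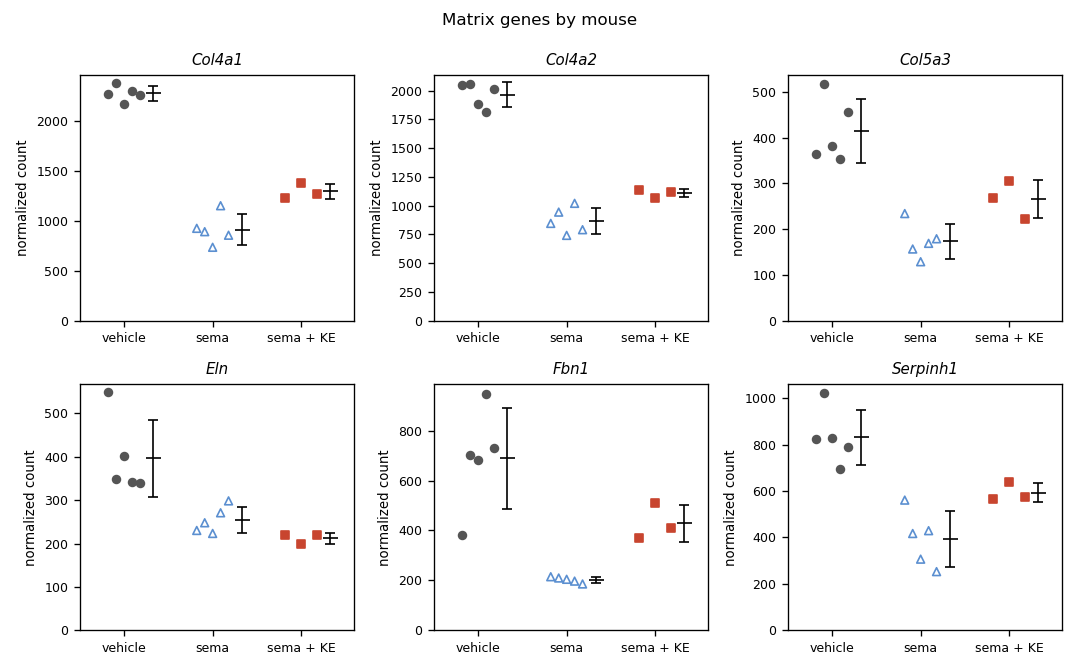
Normalized counts of 6 matrix genes by mouse in vehicle-treated (grey circles, n = 5), semaglutide-treated (sema, open blue triangles, n = 5) and semaglutide + ketone ester-treated mice (sema + KE, red squares, n = 3), with the mean and SD of each group as a bar beside its points. For Col4a1 and Col4a2 the semaglutide + ketone ester-treated mice sit between the other groups, and for Fbn1 mouse 19 lies below every vehicle-treated mouse at 368 while mice 21 and 22 lie within the vehicle range of 383 to 947.

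Regulators of transcription made up a further group of the called genes. Ell2 and Aff1 encode partners in the complex that speeds elongation by RNA polymerase II. Ell2 was at 713 to 1465 in vehicle-treated mice and at 417, 341 and 400 in semaglutide + ketone ester-treated mice, and it fell by 1.40 ± 0.23 (adjusted p = 0.0321). Aff1 was at 1482 to 1884 and at 1274, 1156 and 1042, and it fell by 0.54 ± 0.10 (adjusted p = 0.0479), the smallest change among the 29. Auts2, which encodes a partner of a polycomb complex, was at 312 to 457 and at 203, 208 and 183, and it fell by 0.98 ± 0.16 (adjusted p = 0.0321), with a log2 fold change of -0.06 between semaglutide-treated and vehicle-treated mice (adjusted p = 0.787). The zinc finger genes rose. Zfp503 was at 165 to 229 and at 449, 330 and 583 (1.25 ± 0.20, adjusted p = 0.0321), and Mecom, also called Evi1, was at 93.1 to 111 and at 147, 167 and 178 (0.71 ± 0.12, adjusted p = 0.0321).

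Receptors and signalling genes moved in both directions. Acvr2b, the type IIB receptor through which myostatin and activins limit muscle size, had counts of 53.8, 104, 82.9, 114 and 79.2 in vehicle-treated mice and of 196, 187 and 167 in semaglutide + ketone ester-treated mice. It rose by 1.11 ± 0.20 (adjusted p = 0.0466). Semaglutide-treated mice were also above vehicle (0.81, adjusted p = 0.00592), and the difference between the treated groups was 0.30 (adjusted p = 0.30). Mc5r, a receptor for melanocortin peptides, was at 23.3 to 53.8 in vehicle-treated mice, at 119, 118 and 93.7 in semaglutide + ketone ester-treated mice and at 74.4 to 123 in semaglutide-treated mice. It rose by 1.39 ± 0.24 (adjusted p = 0.0434), the largest rise among the 29 genes, and the difference between the treated groups was 0.13 ± 0.24 (adjusted p = 0.742). Trpv4, a calcium-permeable channel, fell by 1.05 ± 0.15 (adjusted p = 0.0285), from 38.4 to 59.5 in vehicle-treated mice to 25.5, 21.7 and 24.0 in semaglutide + ketone ester-treated mice. Cabp1, which encodes a calcium-binding protein of the calmodulin family, fell by 1.27 ± 0.22 (adjusted p = 0.0434), with mouse 19 at 30.4 and mice 21 and 22 at 14.5 and 14.4 against 37.3 to 56.1 in vehicle-treated mice. Cnksr3, a scaffold of Ras and kinase signalling, had counts of 241, 261, 252, 222 and 185 in vehicle-treated mice and of 104, 58.0 and 57.7 in semaglutide + ketone ester-treated mice, and it fell by 1.70 ± 0.20 (adjusted p = 0.0132). Semaglutide-treated mice were at 101 to 157 for Cnksr3, below vehicle by -0.80 (adjusted p = 0.00785) and above semaglutide + ketone ester-treated mice, which differed from them by -0.90 (adjusted p = 0.0119).

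The adaptor Dok3 had log2 fold changes of opposite sign under the treatments, though the vehicle and semaglutide ranges overlapped. Its fall was called in 6 of 14 other ways of processing and in 4 of 13 fits without 1 mouse. It was at 31.3 to 48.8 in vehicle-treated mice, at no more than 21.9 in semaglutide + ketone ester-treated mice and at 40.8 to 54.5 in semaglutide-treated mice. It fell by 0.87 ± 0.15 against vehicle (adjusted p = 0.042), while semaglutide-treated mice were higher than vehicle-treated mice by 0.38 (adjusted p = 0.0494). Of the remaining signalling and cytoskeletal genes, Mapkbp1, a scaffold of JNK signalling, rose by 0.72 ± 0.13 (adjusted p = 0.0466), Coro2b, an actin-binding coronin, fell by 0.96 ± 0.13 (adjusted p = 0.0285), and Wbp1l fell by 1.12 ± 0.19 (adjusted p = 0.0422). Brca2, a DNA repair gene, rose by 1.02 ± 0.15 (adjusted p = 0.0285), from 15.1 to 21.1 in vehicle-treated mice to 36.4, 39.9 and 37.3 in semaglutide + ketone ester-treated mice. Ube2cbp, which encodes a ubiquitin ligase, fell by 0.81 ± 0.13 (adjusted p = 0.0344), from 37.8 to 53.2 to 23.1, 27.8 and 22.8.

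Enzymes and transporters completed the list. Slc46a3 (chr5:147878437-147894815, minus strand), which encodes a transporter of the lysosomal membrane, had the lowest adjusted p of all genes. Its counts were 87.0, 78.3, 81.7, 80.9 and 74.5 in vehicle-treated mice and 164, 143 and 168 in semaglutide + ketone ester-treated mice, and it rose by 0.97 ± 0.10 (adjusted p = 0.00675). Semaglutide-treated mice were at 72.4 to 93.8, and the semaglutide + ketone ester-treated mice were above them by 0.96 (adjusted p = 0.00098). Ddah1, whose enzyme breaks down the nitric oxide synthase inhibitor asymmetric dimethylarginine, had counts of 126, 90.3, 122, 94.2 and 132 in vehicle-treated mice and of 58.3, 43.5 and 52.9 in semaglutide + ketone ester-treated mice, and it fell by 1.11 ± 0.18 (adjusted p = 0.0321). It was lower still in semaglutide-treated mice, at 22.3 to 38.7, and semaglutide + ketone ester-treated mice were above these by 0.87 (adjusted p = 0.00804). Galk1, the first enzyme of galactose use, fell by 1.04 ± 0.16 (adjusted p = 0.0321) from 30.3 to 38.5 to 19.4, 14.5 and 14.4. Dhrs3, a reductase of retinaldehyde, fell by 0.79 ± 0.13 (adjusted p = 0.0321), and B4galt5, a galactosyltransferase of glycosphingolipid synthesis, rose by 0.87 ± 0.13 (adjusted p = 0.0299).

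Among genes of the fibre itself, Igfn1 was the 1 of 36 sarcomere and Z-disc genes that was called. It encodes a Z-disc protein with immunoglobulin and fibronectin domains and had counts of 647, 799, 552, 578 and 1089 in vehicle-treated mice and of 93.5, 65.2 and 207 in semaglutide + ketone ester-treated mice. It fell by 2.70 ± 0.48 (adjusted p = 0.0479), the largest change among the 29 genes. In semaglutide-treated mice it was at 620 to 2579, and semaglutide + ketone ester-treated mice were lower than these by a log2 fold change of -3.77 (adjusted p = 0.00154). Actc1, the cardiac alpha-actin that skeletal muscle makes during development, was not called but had the largest log2 fold change of all genes without overlap. Its counts were 1127, 1214, 1064, 1926 and 1355 in vehicle-treated mice and 2910, 37383 and 49782 in semaglutide + ketone ester-treated mice (3.75 ± 0.96, adjusted p = 0.156), and edgeR and DESeq2 both called it higher. Mice 21 and 22 thus carried the difference, with mouse 19 at 2910. Mybph, which encodes myosin-binding protein H, was at 1510 to 2657 and at 7391, 5620 and 7733 (1.70 ± 0.49, adjusted p = 0.225).

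Fast fibre genes lay mostly above vehicle. Of 16 tested, 14 had a positive log2 fold change and 8 lay above the vehicle range (5.45% over all genes tested). None of the 16 was called by limma or edgeR, and 2 reached an unadjusted p under 0.05, while DESeq2 called Mylpf. Their median log2 fold change was 0.28, and 0.13 after quantile normalization. The fast regulatory light chain Mylpf was at 107545, 117952, 102392, 91110 and 102744 in vehicle-treated mice and at 132614, 224029 and 210117 in semaglutide + ketone ester-treated mice (0.82 ± 0.27, adjusted p = 0.279). The fast IIB myosin Myh4 (0.42 ± 0.22, adjusted p = 0.556) and the skeletal actin Acta1 (0.44 ± 0.17, adjusted p = 0.39) also lay above the vehicle range in the 3 mice. Slow fibre genes, 14 tested, had a median of -0.21 and none was called by limma or edgeR, with 1 higher at an unadjusted p under 0.05, while DESeq2 called Sln, and their vehicle-treated mice were widely spread. The slow fibre median was -0.52 without vehicle mouse 3, -0.02 without vehicle mouse 1 and -0.0021 without mouse 19, and from -0.37 to -0.11 without any other mouse of the 2 groups. Sarcolipin (Sln), an inhibitor of the calcium pump, was at 25.3 to 47.7 in vehicle-treated mice and at 400, 91.8 and 49.3 in semaglutide + ketone ester-treated mice (1.81 ± 0.54, adjusted p = 0.242), with mouse 19 the highest here. Nmrk2, a nicotinamide riboside kinase of muscle, was at 2062 to 4047 and at 440, 246 and 308 (-3.07 ± 0.65, adjusted p = 0.0895).

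**Figure D4:**
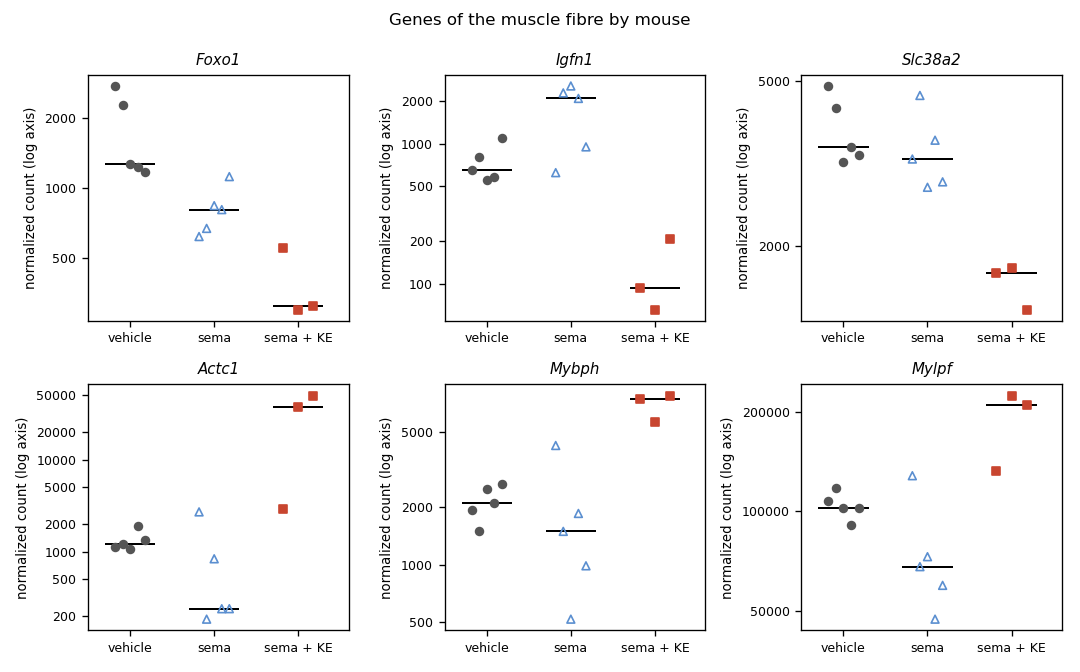
Normalized counts on a log axis of 6 genes of the muscle fibre by mouse in vehicle-treated (grey circles, n = 5), semaglutide-treated (sema, open blue triangles, n = 5) and semaglutide + ketone ester-treated mice (sema + KE, red squares, n = 3), with the group median as a line. Foxo1, Igfn1 and Slc38a2 lie below the vehicle-treated mice in the 3 semaglutide + ketone ester-treated mice, and for Actc1 mice 21 and 22 lie at 37383 and 49782 while mouse 19 is at 2910.

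Glucocorticoid-responsive, immediate early and heat shock genes lay mostly below vehicle, although limma called none of the genes on these 3 lists. Over all genes tested, 6312 of 12303 had a negative log2 fold change and 5.88% lay below the vehicle range. On other stress lists, 12 of 21 integrated stress response, 16 of 29 antioxidant and 11 of 18 p53 target genes had a negative log2 fold change. Their medians were -0.08, -0.02 and -0.06, with 4, 2 and 2 genes lower and none higher at an unadjusted p under 0.05. Limma and edgeR called no gene of those lists, and DESeq2 called Btg2 of the p53 list lower. Of 21 glucocorticoid-responsive genes, 17 had a negative log2 fold change and 4 lay below the vehicle range, with a median of -0.53 and 4 lower at an unadjusted p under 0.05. Tsc22d3 (GILZ), a glucocorticoid receptor target, was at 3494 to 5144 in vehicle-treated mice and at 2819, 2061 and 2900 in semaglutide + ketone ester-treated mice (-0.78 ± 0.16, adjusted p = 0.0728), and it was the 1 gene of the list called by edgeR and by DESeq2. The metallothionein Mt2 was at 129 to 379 and at 174, 64.0 and 75.7 (-1.37 ± 0.44, adjusted p = 0.279), with mouse 19 inside the vehicle range. Of 26 immediate early genes, 20 had a negative log2 fold change and 6 lay below the vehicle range, with a median of -0.44 and 9 lower at an unadjusted p under 0.05, and edgeR called none while DESeq2 called 4. The nuclear receptor Nr4a2 was at 26.8 to 57.2 and at 15.8, 14.5 and 15.6 (-1.37 ± 0.25, adjusted p = 0.0505), and Nr4a3 was at 287 to 1730 and at 255, 118 and 143 (-2.53 ± 0.57, adjusted p = 0.104). Of 35 heat shock and chaperone genes, 28 had a negative log2 fold change and 7 lay below the vehicle range, with a median of -0.18 and 7 lower at an unadjusted p under 0.05. Both edgeR and DESeq2 called the same 3 lower, Hspa1a, Hspa1b and Hsp90aa1. The inducible HSP70 gene Hspa1a was at 558, 908, 382, 402 and 550 in vehicle-treated mice and at 119, 115 and 142 in semaglutide + ketone ester-treated mice (-2.09 ± 0.38, adjusted p = 0.0503). Its near-identical copy Hspa1b had a log2 fold change of -2.23 ± 0.41 (adjusted p = 0.0505), and reads of the pair may have been split by the counting. Hsp90aa1 was at 607 to 925 and at 452, 339 and 386 (-0.88 ± 0.17, adjusted p = 0.059).

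Of 19 genes that respond to PPAR receptors, which fatty acids activate, 17 had a negative log2 fold change and 6 lay below the vehicle range, with a median of -0.45, while none was called by limma, edgeR or DESeq2 or reached an unadjusted p under 0.05 in limma. The lipoprotein lipase inhibitor Angptl4 was at 171 to 390 in vehicle-treated mice and at 95.9, 44.7 and 46.9 in semaglutide + ketone ester-treated mice (-2.11 ± 1.04, adjusted p = 0.508), and the mitochondrial carrier Ucp3, named after its values were seen, was at 4428 to 5854 and at 3140, 1665 and 2186 (-1.15 ± 0.60, adjusted p = 0.549). The semaglutide-treated mice were widely spread for such genes, with Angptl4 at 15.8 to 626, and their spread enters the standard error. Of 34 genes of glycolysis and glycogen, 10 lay above and 4 below the vehicle range and none was called by limma, with 4 higher and 2 lower at an unadjusted p under 0.05, while edgeR called Pfkfb1 and DESeq2 called Pfkfb1 and Pgk1. Pfkfb1, which makes and breaks down the glycolytic activator fructose 2,6-bisphosphate, was at 793, 740, 677, 864 and 901 and at 1171, 1207 and 1324 (0.64 ± 0.12, adjusted p = 0.0503). Pgk1, a glycolytic enzyme, was at 3607 to 4375 and at 5097, 7269 and 7910 (0.74 ± 0.19, adjusted p = 0.156). Ppp1r3c, which directs a protein phosphatase to glycogen and was named after its values were seen, was at 11358 to 18028 and at 7434, 5364 and 3752 (-1.38 ± 0.37, adjusted p = 0.181).

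Cytosolic ribosomal protein genes lay slightly but evenly above vehicle. Of 82 tested, 73 had a positive log2 fold change, 32 lay above the vehicle range (5.45% over all genes tested) and none below it (5.88%). None was called by limma, and 26 were higher at an unadjusted p under 0.05, while edgeR called 3 higher and DESeq2 called 10. The mean log2 difference over the list from the vehicle mean was 0.21, 0.15 and 0.15 in mice 19, 21 and 22 and between -0.09 and 0.06 in vehicle-treated mice, against 0.52 to 0.79 in semaglutide-treated mice. The median log2 fold change was 0.18, and 0.12 with the columns scaled to equal totals. Rplp1 was at 2422 to 2615 in vehicle-treated mice and at 3228, 3148 and 3477 in semaglutide + ketone ester-treated mice (0.38 ± 0.08, adjusted p = 0.0728). Genes of interferon response and antigen presentation were higher in 29 of 37 tested, of which 6 lay above the vehicle range and 8 reached an unadjusted p under 0.05, with a median of 0.22 and none called by limma, edgeR or DESeq2. Oasl2, an interferon-induced gene, was at 26.3 to 52.0 and at 58.3, 71.3 and 66.1 (0.79 ± 0.19, adjusted p = 0.132). On the mean of the list, mouse 19 lay inside the vehicle range at 0.04, with mice 21 and 22 at 0.32 and 0.40.

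**Figure D5:**
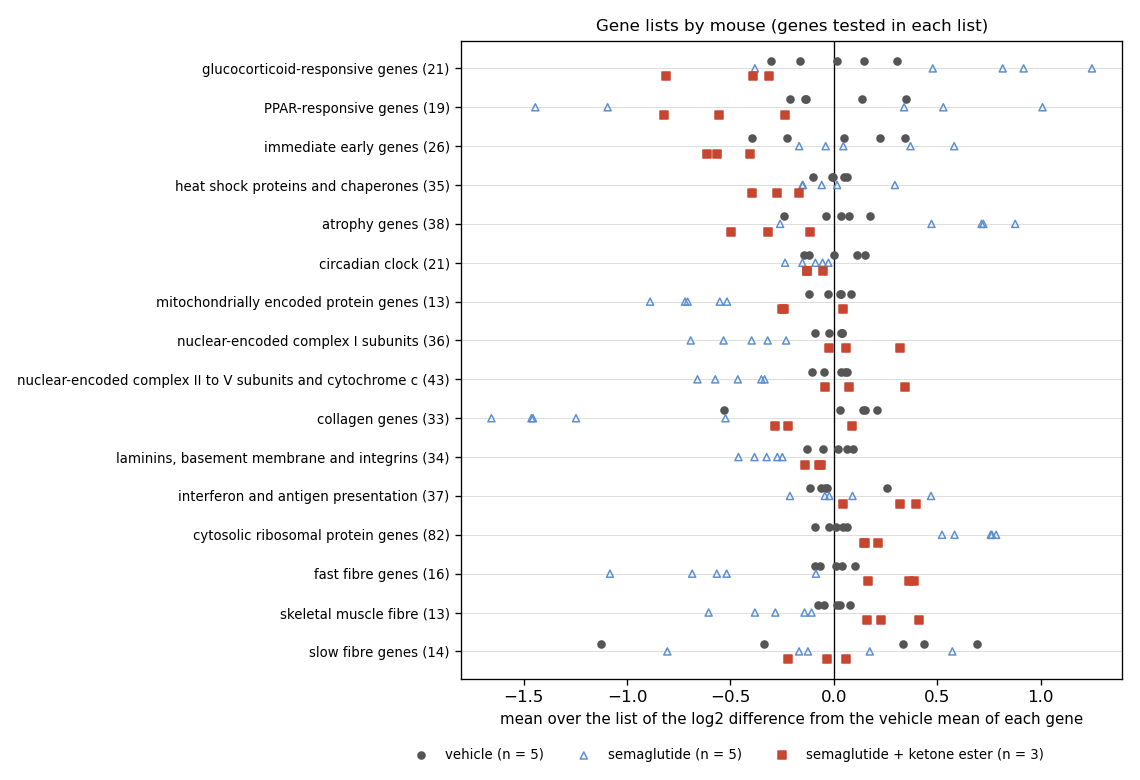
Mean over each gene list of the log2 difference from the vehicle mean of each gene, by mouse, for vehicle-treated (grey circles, n = 5), semaglutide-treated (open blue triangles, n = 5) and semaglutide + ketone ester-treated mice (red squares, n = 3), with the number of genes tested in brackets. Red squares lie outside the range of the grey circles on the lower side for the glucocorticoid-responsive, PPAR-responsive, immediate early and heat shock lists and on the upper side for the ribosomal, fast fibre and skeletal muscle fibre lists, while for each of the other 9 lists plotted at least 1 red square lies among the grey circles.

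No mitochondrial or ketone gene on the lists of this paragraph was called by limma, and the list medians lay between -0.16 and 0.13. Of 36 nuclear-encoded complex I genes, 33 had a positive log2 fold change with a median of 0.10, and of 43 genes of complexes II to V and cytochrome c, 39 had a positive one with a median of 0.13. None of the genes on these lists was called by limma, edgeR or DESeq2, and 1 of them reached an unadjusted p under 0.05. Mouse 22 was the highest on both lists, at 0.32 and 0.34 on the mean of the list, with mice 19 and 21 between -0.04 and 0.08. The 13 mitochondrially encoded protein genes pointed the other way, with a negative log2 fold change in 11, 5 below the vehicle range and a median of -0.16, while none was called by limma, edgeR or DESeq2 and 2 were lower at an unadjusted p under 0.05. These 13 genes took 15.7%, 15.6% and 17.0% of reads in mice 19, 21 and 22 and 17.2% to 19.9% in vehicle-treated mice. mt-Nd2 was at 337104 to 367177 in vehicle-treated mice and at 274627, 273945 and 286321 in semaglutide + ketone ester-treated mice (-0.32 ± 0.10, adjusted p = 0.277). Of 17 PGC-1, ERR and mitochondrial regulators, 13 had a negative log2 fold change, with a median of -0.07. Neither limma, edgeR nor DESeq2 called any. Of these, 1 lay below the vehicle range and 1 above it, both at an unadjusted p under 0.05. Ppargc1a was at 1501 to 3108 in vehicle-treated mice and at 1054, 710 and 1133 in semaglutide + ketone ester-treated mice (-1.25 ± 0.40, adjusted p = 0.279). Ppargc1b was at 98.7 to 133 and at 143, 155 and 234 (0.54 ± 0.15, adjusted p = 0.21). Of 11 genes of ketone body use and monocarboxylate transport none was called by limma, edgeR or DESeq2 or had an unadjusted p under 0.05. Oxct1, which encodes the enzyme that commits ketone bodies to oxidation, was at 5549 to 7786 and at 4861, 6441 and 8393 (0.03 ± 0.21, adjusted p = 0.987), and Bdh1, which oxidizes beta-hydroxybutyrate, was at 506 to 1396 and at 574, 481 and 939 (-0.54 ± 0.44, adjusted p = 0.765). Under semaglutide without the ketone ester both genes fell against vehicle, with log2 fold changes of -1.53 for Oxct1 (adjusted p = 0.000265) and -1.50 for Bdh1 (adjusted p = 0.0143). Between semaglutide + ketone ester-treated and semaglutide-treated mice, Oxct1 was higher in the former by 1.56 (adjusted p = 0.00181). The difference of 0.96 for Bdh1 between these groups was not called (adjusted p = 0.141).

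Some genes were tested because they had been measured or displayed singly when these samples were first described, so that they are no independent sample of genes. Of these 20, none was called by limma, edgeR or DESeq2 between the combined treatment and vehicle, and 2 were higher and 1 lower at an unadjusted p under 0.05. The elongation factor genes Eef1b2 (0.30 ± 0.10, adjusted p = 0.293) and Eef1a2 (0.27 ± 0.10, adjusted p = 0.38) lay above the vehicle range in the 3 mice, as did the receptor Igf1r at 318 to 414 against 251 to 301 (0.33 ± 0.18, adjusted p = 0.557). The log2 fold change was -0.63 ± 0.35 for Klf15 (adjusted p = 0.599), -0.46 ± 0.28 for Gpx3 (adjusted p = 0.66) and -0.02 ± 0.15 for Cox7a1 (adjusted p = 0.986), with overlap in each.

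Markers of other cells were examined in the same way. None of 14 adipocyte, 15 fibroblast, 15 endothelial, 12 pericyte and smooth muscle, 15 macrophage, 11 Schwann cell and 11 satellite cell markers was called by limma, and their medians lay between -0.08 and 0.04. These medians rested on single mice, and leaving out 1 mouse at a time gave -0.17 to 0.34 for the adipocyte list, -0.31 to 0.05 for the fibroblast list, -0.30 to 0.20 for the macrophage list and -0.12 to 0.22 for the Schwann cell list. The lowest and highest came without vehicle mice 4 and 5 for the adipocyte list, without vehicle mouse 1 and mouse 22 for the fibroblast and macrophage lists, and without mouse 19 and vehicle mouse 5 for the Schwann cell list. In each of these lists 0 to 3 genes were higher and 0 to 2 lower at an unadjusted p under 0.05, and edgeR and DESeq2 each called 1 of them, the satellite cell marker Sdc4, lower. The summed normalized count overlapped between the groups for the fibroblast list (17439 to 36705 in vehicle-treated mice, against 19539 to 30005 in semaglutide + ketone ester-treated mice), the endothelial list (14634 to 19875 and 15232 to 17690) and the macrophage list (915 to 2684 and 1239 to 2333). The part of these cells in the lower Col4a1, Col4a2 and Eln was not tested. The median of the 9 tenocyte markers was -0.12, and none was called by limma, edgeR or DESeq2, with 1 lower at an unadjusted p under 0.05. That median was -0.64 without vehicle mouse 1 and above 0 without vehicle mouse 2 (0.06), 4 (0.08) or 5 (0.14). Erythroid transcripts were the exception, with 6 of 6 tested markers above the vehicle range, a median of 1.23 and none called by limma, edgeR or DESeq2 or under an unadjusted p of 0.05. They include globin genes, whose near-identical copies can share reads. Their summed count was 4958 to 7937 in semaglutide + ketone ester-treated and 3288 to 4166 in vehicle-treated mice, and Alas2, the erythroid enzyme of haem synthesis, was at 12.4 to 30.9 in vehicle-treated mice and at 61.9, 89.4 and 91.3 in semaglutide + ketone ester-treated mice (1.85 ± 1.00, adjusted p = 0.576). On the mean of the erythroid list, semaglutide-treated mice ran from -4.44 to 0.81, and their spread enters the standard errors. Of 15 lymphocyte markers 10 were in the table used here and none of these reached the mean of 10, and 1 of 10 neutrophil markers did.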

How the data were processed

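Total RNA of gastrocnemius was extracted with TRIzol, made into stranded poly(A) libraries and sequenced on a NextSeq2000, and the reads were aligned to mm10 with DRAGEN, per the study's methods; the submitters' processing notes also name DESeq2. The deposited values are normalized counts per gene, a signal with a constant step per library; dividing by the step gave whole reads for 100% of values (tolerance 0.1), and median-of-ratios size factors came within 1.74% of every step, so the authors' scaling was taken to be of that kind. Each mouse is 1 library, with 15319471 to 23498162 reads; replicate pairs were compared and none looked like the same library. The hour of collection and the feeding state are not given in the sources used here.

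Genes with a mean of at least 10 over the 13 mice were tested with limma 3.58.1 (R 4.3.3) on log2(normalized count + 1) in a model of the 3 groups, with Benjamini-Hochberg adjustment over 12303 genes and a threshold of 0.05. edgeR 4.0.16 and DESeq2 1.42.0 on recovered reads, other scalings, filters and pseudocounts, and fits without each mouse were alternatives, and the scripts were tested on simulated data. Genes to be named were those called, those the study measured, each list's called members (or the 3 with the smallest p) and, in each direction, up to 10 uncalled genes without overlap. Not all of these genes are named and not every list is described in the text, and some other genes were named after their values were seen. The genes, lists and comparison were chosen with earlier results of these data known. Coordinates are from GENCODE M21 on GRCm38 and promoters from RefSeq on GRCm38.p6. 1 gene of the clock list is counted but not reported here by name.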

Additional observations from a re-analysis of the deposited data

Results flagged for a closer look

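By Dixon's criterion chance flags about 1 in 20 groups, and the share flagged below was smaller than that. Of 138 groups of 5 mice tested for 69 named genes, 4 held a mouse whose gap to its nearest neighbour exceeded 0.71 of the group's range. Semaglutide mouse 13 was the lowest of its group in 3 of these. Klf15 was at a normalized count of 356.862 in it against 961.379 in the next mouse, Arrdc2 was at 109.283 against 1122, and Pagr1a, a gene that overlaps other gene models, was at 0 against 10.1. These 3 values take no part in the means of the groups compared but enter the shared spread. Among vehicle-treated mice, Ifitm1 was at 2.33 in mouse 5 against 6.02 in the next mouse.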

How the results depend on the processing

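The count of 29 genes (9 higher, 20 lower) changed with the test, the filter and the mice. It was 205 (84 higher, 121 lower) with a weight per mouse, 172 (68 and 104) with DESeq2, 45 (17 and 28) with edgeR, 271 (126 and 145) with edgeR on the 8 mice and 45 (12 and 33) with limma-trend. It was 248 (125 and 123) with the study's analysis of variance p and fold of 1.5. Tukey's comparison of the 2 groups was required as well for that count, and nothing was adjusted over genes. It was 11 (4 and 7) with a mean of at least 1 and 4 (2 and 2) with no filter, where more genes were tested, 37 (6 and 31) with equal totals, 43 (12 and 31) with a pseudocount of 10 and 24 (11 and 13) on the 8 mice alone. The other settings, TMM factors, quantile normalization, a pseudocount of 0.1 and the mean taken over the 8 mice, gave 28 to 38. Of the 29 genes, 26 were among those called with DESeq2, 23 with edgeR and 13 with the 8 mice alone. Without 1 mouse the count ran from 1 to 77 (higher 0 to 29, lower 0 to 48), and it was 12 without mouse 19. Without mouse 22 no gene of the 29 was called. None of the 29 genes changed sign under any of these alternatives for which it was fitted. The cause of these changes was not tested. Without 1 mouse, list medians ran from -0.33 to -0.08 for collagen genes, -0.27 to -0.08 for matrix processing, 0.02 to 0.18 for complex I and 0.02 to 0.22 for complexes II to V. With 3 semaglutide + ketone ester-treated mice, small changes may pass undetected. No paired analysis was possible because the mouse numbers are not shared between groups.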

Other observations

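Several gene groups have not been described above. All of the following lists had no gene called by limma. Fatty acid uptake and beta-oxidation genes had a negative log2 fold change in 23 of 24 tested, with a median of -0.19, but none lay outside the vehicle range and none had an unadjusted p under 0.05, and edgeR and DESeq2 called none. Proteasome subunits had a median of -0.01 over 37 genes with 1 higher at an unadjusted p under 0.05, and autophagy and lysosome genes -0.02 over 30 genes with 1 higher. Both lists held no call by edgeR or DESeq2. Mitochondrial ribosomal protein genes had a positive log2 fold change in 59 of 77 tested, with a median of 0.06, 3 higher at an unadjusted p under 0.05 and no call by edgeR or DESeq2.

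Genes of denervation and the neuromuscular junction had a median of 0.14 over 22 genes (0.01 to 0.20 without 1 mouse). Of these, 5 lay above the vehicle range (5.45% over all genes tested) and none below it. At an unadjusted p under 0.05, 3 were higher and 1 lower, with no call by edgeR or DESeq2. On the mean of that list mouse 19 was the highest of the semaglutide + ketone ester-treated mice at 0.24, with mice 21 and 22 at -0.02 and 0.05. Secreted muscle factors had a median of -0.13 over 21 genes, of which 2 lay below the vehicle range (5.88% over all genes tested). At an unadjusted p under 0.05, 1 was lower, without a call by edgeR or DESeq2. On the mean of that list the 3 mice were at -0.17, -0.27 and -0.25, below the vehicle-treated mice at -0.13 to 0.32.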
